A study of Homo sapiens with 12 samples.

Results

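The regions described here are the CpG-dense stretches of the genome that read intermediate 5-methylcytosine (5mC) in SV-HUC-1 cells, a human urothelial line immortalised with SV40. The genome was divided into regions of 1 kb, and the members were chosen by 2 measured properties: at least 46 CpGs in the 5mC table, and a mean 5mC from 30% to 70% over all of their CpGs and all 6 samples. On chromosomes 1 to 22, 1294 regions met the rule. They were 10.27% of the 12601 regions with at least 46 CpGs, of which 8792 read under 30% and 2515 over 70%, and 348009 regions held any measured CpG. The cells had been exposed for 3 days to 2,6-dichloro-1,4-benzoquinone (DCBQ), a chlorinated quinone formed when drinking water is disinfected, or to a blank solution as the control. Both groups are the same line, and the dose was not given in the sources used here. For DCBQ and for control cells alike, 3 libraries were made by reduced representation bisulfite sequencing (RRBS), which enriches CpG-rich DNA, and 3 with oxidation before bisulfite (oxRRBS), 12 in all. The deposited tables give 5mC and 5-hydroxymethylcytosine (5hmC) per CpG in 3 DCBQ and 3 control samples. They hold no read depth, so the precision of single values is unknown beyond the spread between samples. The labels do not say that samples came from separate cultures, so the p-values below rest on a spread among samples that could be purely technical.

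Most CpG-dense DNA in mammalian cells lies in CpG islands, which usually carry little methylation, whereas dense repeats and silenced islands are usually methylated. An intermediate average can come about in several ways. The copies inherited from the mother and the father can differ, as at imprinted genes, where a control region is methylated on a single parental copy. The cells or the repeat copies can differ from each other. A window can also simply straddle the edge where an unmethylated island meets methylated flanking DNA. Ten-eleven translocation (TET) enzymes oxidise 5mC to 5hmC, and islands are kept unmethylated partly by the balance between these enzymes and the DNA methyltransferases. Because reads in the tables are already averaged, parental copies, cells and repeat copies cannot be told apart here.

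The following 300-base promoter sequences show the contrast between an intermediate level held by most CpGs and an edge. They come from RefSeq (GRCh38.p14), run from 250 bases before to 50 after the transcription start in the direction of transcription, and lie wholly inside a member region. In total 213 such windows lay inside members, and every measured CpG position in them fell on a CG. The first 3 were those with the smallest standard deviation (SD) among CpGs of uniform regions with at least 24 measured CpGs, and HOXA9 and DUX4 stand for a developmental gene and a tandem repeat. Capitals mark the measured CpGs whose mean 5mC over the 6 samples lay from 20% to 80%, and a CpG in lower case was either outside this range or not measured.
ZNF331 (zinc finger protein, imprinted; chr19:53554577-53554876, plus strand): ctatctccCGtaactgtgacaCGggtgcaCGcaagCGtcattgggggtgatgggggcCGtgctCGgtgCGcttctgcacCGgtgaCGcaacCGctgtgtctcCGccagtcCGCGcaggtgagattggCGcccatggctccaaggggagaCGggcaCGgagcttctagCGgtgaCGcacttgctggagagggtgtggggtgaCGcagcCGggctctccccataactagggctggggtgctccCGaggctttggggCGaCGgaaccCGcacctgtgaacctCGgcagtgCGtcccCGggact
PLAGL1 and HYMAI (imprinted transcription factor and non-coding RNA sharing a start; chr6:144008210-144008509, minus strand): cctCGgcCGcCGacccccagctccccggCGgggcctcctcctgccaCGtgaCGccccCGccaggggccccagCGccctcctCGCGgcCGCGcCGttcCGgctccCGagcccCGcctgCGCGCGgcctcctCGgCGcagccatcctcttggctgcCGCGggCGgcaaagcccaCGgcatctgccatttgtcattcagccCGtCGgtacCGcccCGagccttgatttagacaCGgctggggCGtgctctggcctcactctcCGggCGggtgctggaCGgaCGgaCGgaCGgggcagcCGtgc
TPM1 (tropomyosin, an actin-binding protein; chr15:63048239-63048538, plus strand): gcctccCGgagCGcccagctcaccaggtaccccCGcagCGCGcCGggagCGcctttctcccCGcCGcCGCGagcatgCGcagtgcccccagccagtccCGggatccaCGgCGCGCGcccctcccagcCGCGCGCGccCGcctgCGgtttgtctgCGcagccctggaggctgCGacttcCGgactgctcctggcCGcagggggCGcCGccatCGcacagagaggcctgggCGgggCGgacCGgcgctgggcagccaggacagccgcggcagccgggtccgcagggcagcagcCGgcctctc
HOXA9 (homeobox factor of body patterning; chr7:27165488-27165787, minus strand): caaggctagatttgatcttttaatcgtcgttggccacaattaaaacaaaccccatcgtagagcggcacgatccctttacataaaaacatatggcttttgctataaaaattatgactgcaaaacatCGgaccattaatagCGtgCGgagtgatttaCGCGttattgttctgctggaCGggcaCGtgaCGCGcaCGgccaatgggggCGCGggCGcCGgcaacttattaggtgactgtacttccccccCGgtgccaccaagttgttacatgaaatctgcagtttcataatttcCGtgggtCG
DUX4 (double homeobox factor encoded in the D4Z4 repeat; chr4:190173524-190173823, plus strand): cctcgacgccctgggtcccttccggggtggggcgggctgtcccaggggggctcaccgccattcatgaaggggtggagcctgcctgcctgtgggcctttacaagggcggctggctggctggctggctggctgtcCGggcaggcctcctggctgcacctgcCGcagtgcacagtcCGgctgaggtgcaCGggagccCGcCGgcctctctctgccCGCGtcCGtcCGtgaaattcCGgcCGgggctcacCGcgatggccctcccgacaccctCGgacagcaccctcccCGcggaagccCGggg

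All 27 measured CpGs of the ZNF331 sequence were intermediate, with a mean of 42.0% in DCBQ and 44.1% in control samples and an SD among CpGs of 4.38 percentage points. In the sequence shared by PLAGL1 and HYMAI, 38 of 39 were intermediate, at 31.4% in DCBQ and 28.2% in control samples. All 34 in TPM1 were intermediate, at 41.1% in DCBQ and 45.1% in control samples. All 17 in HOXA9 were too, at 49.0% in DCBQ and 41.6% in control samples. In DUX4, 16 of 19 were intermediate, at 58.9% in DCBQ and 60.4% in control samples, with a wider SD among CpGs of 18.4 points.

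The sequences below are the promoters of boundary regions with the largest difference between their upstream and downstream CpGs, among those with at least 24 measured CpGs. Here capitals mark the measured CpGs that read over 50% 5mC, and CpGs in lower case read less or were not measured.
TMEM171 (transmembrane protein; chr5:73120325-73120624, plus strand): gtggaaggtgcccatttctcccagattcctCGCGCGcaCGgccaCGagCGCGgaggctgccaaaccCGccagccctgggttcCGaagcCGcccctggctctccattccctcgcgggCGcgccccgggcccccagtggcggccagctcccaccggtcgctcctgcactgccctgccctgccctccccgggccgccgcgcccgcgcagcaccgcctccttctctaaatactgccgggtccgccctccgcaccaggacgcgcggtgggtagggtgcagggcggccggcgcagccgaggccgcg
ASS1 (argininosuccinate synthase of arginine synthesis; chr9:130444457-130444756, plus strand): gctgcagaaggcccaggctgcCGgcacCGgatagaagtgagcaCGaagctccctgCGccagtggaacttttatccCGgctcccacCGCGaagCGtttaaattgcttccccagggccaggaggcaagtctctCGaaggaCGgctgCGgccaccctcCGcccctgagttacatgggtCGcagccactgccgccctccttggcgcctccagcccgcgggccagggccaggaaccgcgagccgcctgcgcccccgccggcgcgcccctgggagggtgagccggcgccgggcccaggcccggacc
GP1BB (platelet glycoprotein subunit; chr22:19723289-19723588, plus strand): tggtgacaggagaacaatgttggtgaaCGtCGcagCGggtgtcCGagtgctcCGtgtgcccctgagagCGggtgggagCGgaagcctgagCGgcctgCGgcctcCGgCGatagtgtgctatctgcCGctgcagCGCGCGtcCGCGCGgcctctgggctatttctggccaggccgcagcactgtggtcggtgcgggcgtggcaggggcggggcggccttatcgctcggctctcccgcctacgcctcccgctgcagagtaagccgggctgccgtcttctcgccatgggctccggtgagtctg

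In TMEM171 the upstream 18 measured CpGs averaged 61.8% and the downstream 18 averaged 1.62%. In ASS1 the upstream 12 averaged 75.6% and the downstream 12 averaged 17.2%, and in GP1BB the upstream 15 averaged 78.5% and the downstream 15 averaged 28.8%. In these sequences the methylated CpGs lay upstream and the unmethylated ones around the start of transcription.

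Of the 84136 CpGs in members, 56.2% read from 20% to 80% (mean of the 6 samples), 21.4% read under 20% and 22.4% over 80%. A region was called uniform where at least 80% of its CpGs were intermediate. It was called boundary where it was not uniform and a single change point, with at least 8 CpGs on each side, explained at least 50% of the variance among CpGs with segments at least 40 points apart. By these rules 215 regions (16.6%) were uniform, 491 (37.9%) were boundary regions and 21 (1.62%) needed a pair of change points, 17 of them with a low and 4 with a high middle. The other 567 (43.8%) were mixed. These classes were made from the 5mC values that also chose the members, so their 5mC features are a description with no test.

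**Figure D1:**
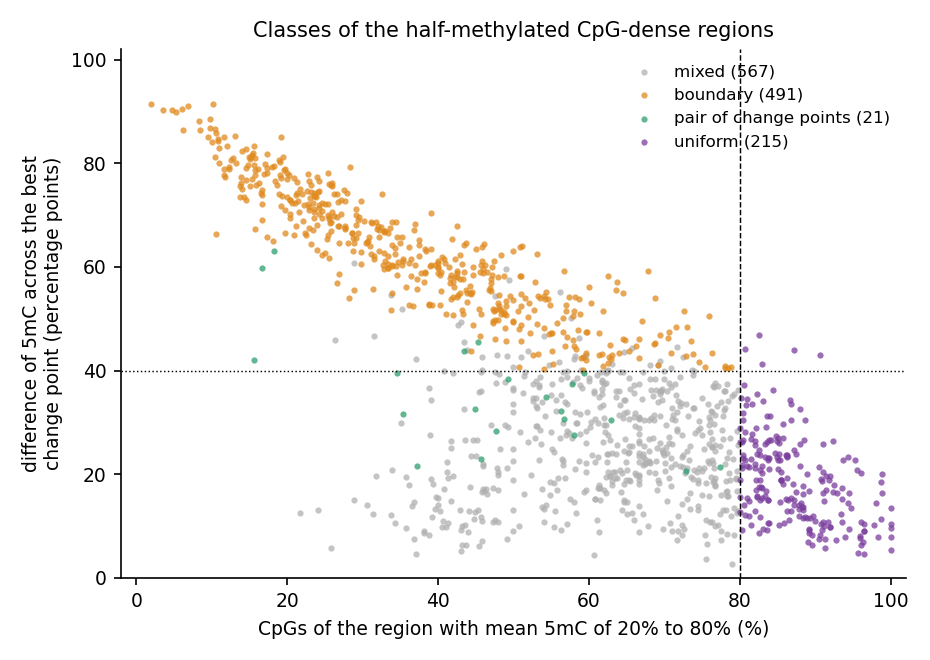
Each point is a member region, placed by the percent of its CpGs with mean 5mC of 20% to 80% (x) and by the difference in 5mC across its best change point in percentage points (y). The dashed and dotted lines are the limits of 80% and 40 points, and the 491 boundary regions run as a band from few intermediate CpGs and large steps toward the 567 mixed regions.

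Uniform regions had a median SD of 18.6 points among their CpGs, against 34.7 in boundary regions and 24.4 in mixed ones. In boundary regions the low segment had a median of 14.9% and the high segment 80.3%, with a median step of 62.4 points. The neighbouring regions also differed between the classes. The rule did not use them, but they adjoin the segments that set the class. Inside the long runs of members described below, the neighbours are members themselves. The values are therefore a description and no independent check of the classes. Among 234 boundary regions with both neighbours measured, the lower neighbour had a median of 8.55% 5mC and the higher 86.8%, and 149 had one neighbour under 30% and the other over 70%. Among 120 uniform regions with both neighbours measured, the medians were 49.5% and 61.9%, and only 4 had such a pair of neighbours.

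From the DCBQ samples alone 1242 of the 1294 regions (96.0%) fell in the same class as from all samples, and from the control samples alone 1227 (94.8%). The classes from all samples include the samples compared with them, so part of the agreement given here is built in. From single samples the agreement was 90.3% to 91.1% over all classes, and it differed between them. A single sample recovered 467 to 475 of the 491 boundary regions, 521 to 533 of the 567 mixed ones, 150 to 170 of the 215 uniform ones and 15 to 18 of the 21 with a pair of change points. The 3 regions just inside the lower end of the window had 30.03% to 30.04% 5mC and the 3 just outside it 29.91% to 29.98%, and at the upper end the 3 inside had 69.97% to 69.996% and the 3 outside 70.03% to 70.08%, so members and other regions meet without a gap.

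Tandem repeats made up much of the uniform class. These families were picked out after the members had been seen. The D4Z4 repeat is a tandem array on chromosomes 4 and 10 whose units hold DUX4 copies, and its loss of methylation is known from facioscapulohumeral dystrophy. Genes of the DUX4 family gave 82 CpG-dense regions, 34 of them on chromosome 4, 43 on chromosome 10 and 5 elsewhere. Of the 82, 81 were members, 59 of them uniform and 22 mixed, and the median over all 82 was 52.2% 5mC. The 5S ribosomal RNA genes of chromosome 1 gave 20 members among 30 dense regions, 13 of them uniform, and the other 10 read over 70%. Dense regions at transfer RNA genes gave 15 members of 55, 12 of them uniform, and 37 read under 30%. Chromosome 1 alone held 14 of these 15 members and all 12 uniform ones, among its 24 dense regions at such genes. The remaining member was on chromosome 17, so the intermediate level was not a trait of transfer RNA genes in general. Together the families held 116 of the 1294 members and 84 of the 215 uniform regions, against 167 of all 12601 dense regions. Copies of these units are nearly identical and share reads, and the sources used here do not say how reads with several matching places were treated, so values of single copies are uncertain.

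The longest unbroken runs of members were in these repeats. A run of 28 regions covered chr4:190065001-190093000 with DUX4L1 to DUX4L8, and runs of 22 and 21 regions lay at chr10:133664001-133686000 and chr10:133741001-133762000. Outside the repeat families members were mostly isolated: of 1116 runs without a repeat region, 1057 were a single region and the longest held 3. In the DUX4L8 region (chr4:190069001-190070000, 70 CpGs) the 5mC level was 57.5%, 55.1% and 57.6% in DCBQ samples, against 57.0%, 57.7% and 56.8% in control samples. In the RNA5S13 region (chr1:228637001-228638000, 62 CpGs) it was 60.1%, 60.6% and 58.4% in DCBQ samples, against 61.7%, 59.5% and 59.1% in control samples. The TRL-CAG1-5 region (chr1:161471001-161472000, 86 CpGs), at a leucine transfer RNA gene, had 47.9%, 48.0% and 48.3% in DCBQ samples, against 47.8%, 47.5% and 44.9% in control samples. The groups overlapped at DUX4L8 and RNA5S13. At TRL-CAG1-5 every DCBQ value was above the controls, by less than the spread among the controls (limma difference 1.30 points, SE 1.82, adjusted p 0.95).

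Members at imprinted genes were mostly uniform. The list of 66 imprinted genes had 50 dense regions that overlapped a gene or lay within 2 kb of it, of which 35 read under 30%, 8 over 70% and 7 were members. Of the 7, 6 were uniform. The gene table gives no exons, so positions are described by gene only. GRB10 encodes an adaptor that binds the insulin receptor. Its region (chr7:50782001-50783000, 71 CpGs) had all CpGs in the intermediate range, with 46.6%, 49.1% and 46.2% 5mC in DCBQ samples, against 47.3%, 51.1% and 41.5% in control samples. The ZNF331 region (chr19:53554001-53555000, 51 CpGs) had 43.6%, 40.3% and 43.5% in DCBQ samples, against 44.1%, 41.8% and 47.8% in control samples. The groups overlapped in both.

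The PLAGL1 and HYMAI region (chr6:144008001-144009000, 81 CpGs) had 32.9%, 35.2% and 30.4% 5mC in DCBQ samples, against 29.5%, 25.6% and 34.4% in control samples. KCNQ1 encodes a potassium channel, and the antisense RNA KCNQ1OT1 starts within it. Their region (chr11:2700001-2701000, 57 CpGs) had 39.95%, 37.3% and 43.8% in DCBQ samples, against 42.6%, 45.3% and 46.03% in control samples. The difference was -4.30 points (SE 2.25, limma adjusted p 0.835), and it was -2.78 without DCBQ replicate 2. At GNAS, which encodes a G protein alpha subunit and several imprinted transcripts, 3 regions were members. The one at chr20:58889001-58890000 (74 CpGs) had 34.6%, 32.9% and 31.4% in DCBQ samples, against 31.7%, 32.4% and 33.8% in control samples. The one shared with GNAS-AS1 at chr20:58840001-58841000 (54 CpGs) had 62.4%, 69.5% and 66.8% in DCBQ samples, against 66.8%, 69.3% and 65.1% in control samples. The GNAS region at chr20:58854001-58855000 (86 CpGs) was a boundary region, with segments of 85.2% and 40.05% 5mC, and had 51.7%, 53.2% and 54.3% in DCBQ samples, against 53.3%, 54.0% and 55.7% in control samples. The groups overlapped in each of the 5 regions, and the adjusted p of the 7 regions was 0.835 to 0.989.

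Adjacent CpGs differed little in 5 of the 7 imprinted members. For each region the median absolute difference in 5mC between adjacent measured CpGs at most 50 bp apart was taken. It had a median of 10.8 points over the 215 uniform regions and of 10.8 over the 84 uniform repeat regions. In the 6 uniform imprinted regions it was 0.817 to 7.36 points, with a median of 1.12, and the highest was the GNAS region shared with GNAS-AS1. The GNAS boundary region had 6.15 points, against a median of 5.81 over boundary regions. Only 9 uniform regions were under 2.5 points, a limit set after the values had been seen. The imprinted ones among them were GNAS (chr20:58889001-58890000), ZNF331, GRB10, PLAGL1 and KCNQ1. The other 4 were ZNF354A, a zinc finger gene, at 1.25 points, GATA3, a transcription factor of urothelial and lymphoid cells, at 1.37, a region with no annotated gene at chr7:12556001-12557000 at 2.15, and IQANK1 at 2.21. Adjacent CpGs often share reads, and this measure comes from the same 5mC values that chose the members, so it is given with no test.

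**Figure D2:**
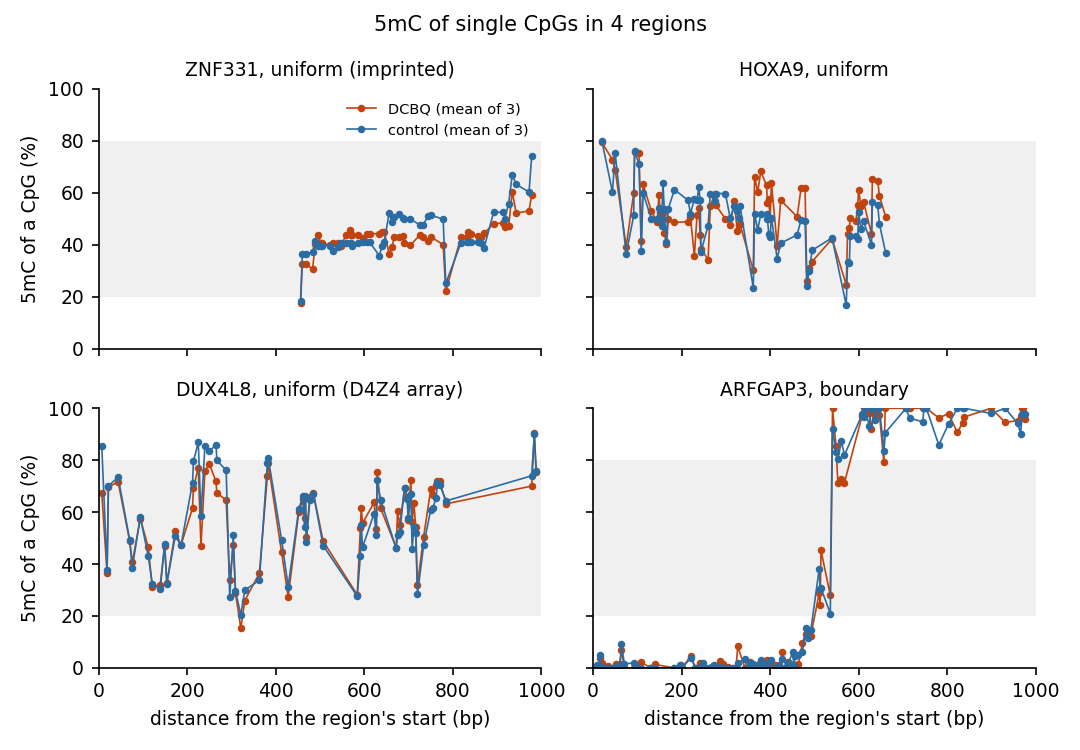
Mean 5mC of each CpG in percent (y) by distance from the start of its region in bp (x), as the mean of 3 DCBQ and of 3 control samples, in 4 regions with the range of 20% to 80% shaded. Most CpGs of ZNF331 lie near its mean of 43.5%, with lower first CpGs and a rise to 59.3% in DCBQ and 74.1% in control samples at its last CpG. HOXA9 and DUX4L8 vary from CpG to CpG, mostly within the intermediate range, and ARFGAP3 steps from 3.44% to 94.5%.

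The uniform regions with the smallest SD among CpGs were GRB10 at 7.35 points, ZNF331 at 7.76, IQANK1 at 8.41, KCNQ1 at 8.84, PLAGL1 at 8.88 and MYO1D, an unconventional myosin, at 9.52. The MYO1D region (chr17:32822001-32823000, 47 CpGs) had 56.1%, 46.9% and 47.1% 5mC in DCBQ samples, against 47.5%, 46.7% and 41.6% in control samples. The HOXA9 region (chr7:27165001-27166000, 68 CpGs) had all CpGs intermediate, with 51.5%, 51.4% and 53.5% in DCBQ samples, against 48.6%, 48.4% and 51.2% in control samples. The groups did not overlap there, and the limma difference was 2.67 points (SE 1.96, adjusted p 0.89). The GATA3 region (chr10:8051001-8052000, 51 CpGs), which also covers GATA3-AS1, had 49.8%, 49.4% and 52.1% in DCBQ samples, against 54.0%, 50.1% and 52.3% in control samples. The groups overlapped at MYO1D and GATA3.

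Beside the 10.27% of all dense regions that were members, the gene lists gave 14.0% to 23.2%. Developmental transcription factors, many of which are Polycomb targets in stem cells and gain methylation in cultured and tumour cells, had 70 members of 302 dense regions, of which 12 were uniform and 30 boundary. GATA3, GATA4 and BARHL1 had the highest shares of intermediate CpGs among them. Genes used as methylation markers of bladder tumours had 17 members of 90, of which 2 were uniform and 12 boundary, and HOXA9, NRN1 and VAX1 led by intermediate CpGs. HOX genes had 5 members of 30, of which HOXA9 was uniform and 4 were boundary regions. Clustered protocadherins, whose promoters are chosen cell by cell in neurons, had 3 members of 16, PCDHB16, PCDHB9 and PCDHB15, and all 3 were mixed. Genes expressed in the germline had 5 members of 23. Uniform among them were PIWIL1 and a region that overlaps SPRNP1 and lies within 2 kb of SYCE1. The lists overlap (HOXA9 stands on 2 of them), and no test was made of their counts.

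Annotation differed between the classes as well. A transcription start lay inside 20% of the 1238 members on chromosomes with a table of starts, inside 25.9% of boundary and 19.6% of uniform regions, against 59.1% of dense regions under 30% and 6.82% of those over 70%. A protein-coding gene overlapped 61.8% of members, against 89.6% of dense regions under 30% and 65.5% of those over 70%. Within 1 Mb of the first base or the last measured CpG of a chromosome lay 31.2% of uniform and 9.78% of boundary regions, and the D4Z4 arrays are at such ends. Members made up 18.5% of dense regions on chromosome 10 and 14.5% on chromosome 4, which carry the arrays, and 6.34% to 13.8% on each of the other chromosomes.

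Boundary regions were defined by a steep change of methylation along the sequence. The 50 bp steps below are placed around that same change point, so the jump of 5mC across it follows from the rule. Among the largest steps were those at ZNF628, with segments of 94.8% and 3.34%, FOXRED2 with 92.4% and 0.983%, ARFGAP3, a coat protein regulator of the Golgi, with 94.5% and 3.44%, and WRAP73 with 92.9% and 2.46%. Of 260 boundary regions with an annotated start within 2 kb of the region, 225 (86.5%) had the nearest start on the unmethylated side. In 144 of these 225 (64%) the gene ran toward the methylated side. The mean 5mC in 50 bp steps was 10.6% to 13.2% at 200 to 500 bp into the unmethylated side, 28.7% in the last 50 bp before the change point, 69.8% in the first 50 bp after it and 82.5% to 86.3% at 200 to 500 bp into the methylated side. On the unmethylated side the share of intermediate CpGs was 66.8% in the 50 bp before the change point and 18.4% at 350 to 400 bp from it.

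The position of the edge did not differ detectably between the conditions. Within single samples the change point of a boundary region fell on the same CpG as over all samples in 69.9% of cases, and within 50 bp in 89.5%. Averaged over the 491 regions it lay -1.26, -0.341 and 0.549 bp from the common position in DCBQ samples, against -4.06, 0.146 and -1.56 bp in control samples, with positive values toward the methylated side. The difference was 1.47 bp (SE 1.33, two-sided exact permutation p = 0.4). With 3 samples against 3 the smallest p this test can give is 0.1, so it cannot pass 0.05.

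**Figure D3:**
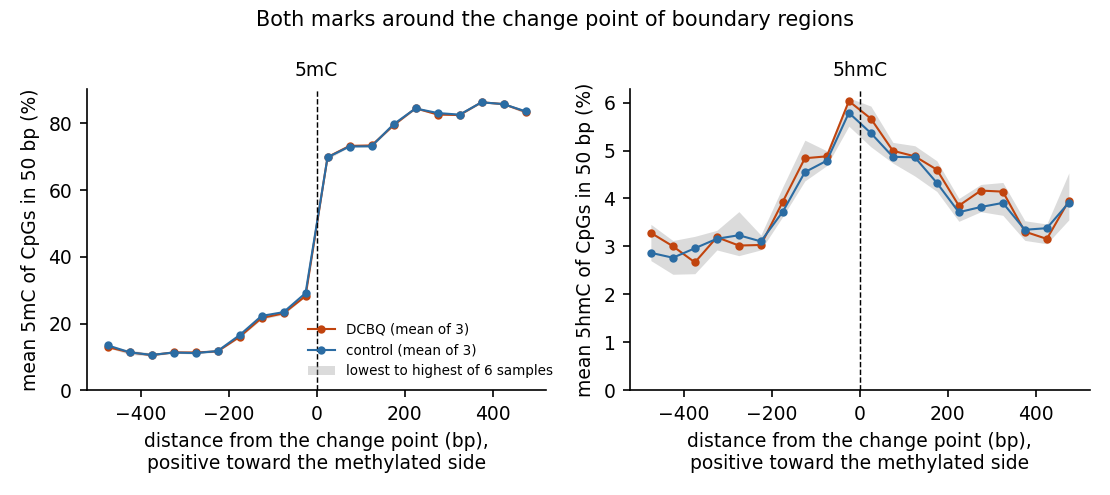
Mean 5mC (left) and 5hmC (right) in percent of CpGs in 50 bp steps (y) by distance from the change point of the 491 boundary regions in bp, positive toward the methylated side (x), for DCBQ and control samples (means of 3) with the lowest to highest of the 6 samples in grey. The DCBQ and control lines of 5mC lie nearly on each other, and 5hmC is highest next to the change point, at 5.91% in the 50 bp before it.

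The 5hmC readings of these regions were low, but higher than those of other dense regions. Members averaged 5.12%, 4.85% and 5.07% 5hmC in DCBQ samples and 4.68%, 4.81% and 5.06% in control samples. Over the 6 samples they exceeded dense regions under 30% 5mC by 3.61 points (SD 0.151) and those over 70% by 1.45 points (SD 0.202), and did so in 6 of 6 samples. The two-sided exact sign-flip permutation test gave p = 0.031 for each, the smallest that 64 flips of 6 samples can give, and 0.039 after Benjamini-Hochberg adjustment over 5 such comparisons. This test cannot tell a true excess from an offset of the readings that all samples share. The spread and the share of values at 0, given further below, also differed between these sets. In steps of 10 points of 5mC, dense regions had 0.978% 5hmC where 5mC was under 10%, 5.23% where it was 50% to 60% and 2.32% where it was over 90%. Sparser regions of 5 to 45 CpGs at 30% to 70% 5mC had 5.75% 5hmC, against 4.93% in members, so the maximum at intermediate 5mC was not confined to dense DNA.

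**Figure D4:**
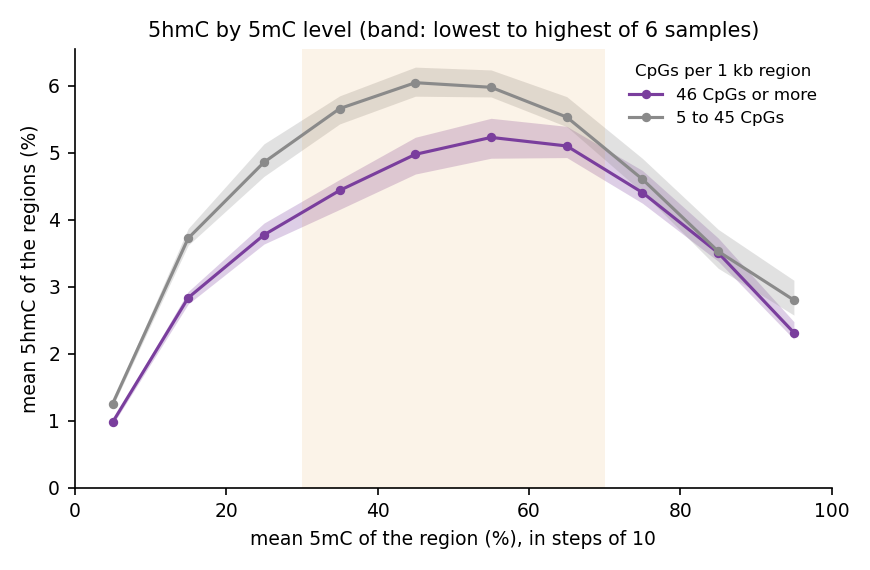
Mean 5hmC in percent (y) of 1 kb regions in steps of 10 points of their mean 5mC (x), for regions with at least 46 CpGs and with 5 to 45 CpGs, with bands from the lowest to the highest of the 6 samples and the members' window shaded. Both curves are highest at intermediate 5mC, at 5.23% in the dense and 6.05% in the sparser regions.

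The classes differed in 5hmC, in comparisons that were added after the classes and families had been seen. Uniform regions exceeded boundary regions by 1.26 points (SD 0.202, higher in 6 of 6 samples, exact sign-flip permutation p = 0.031, adjusted 0.039). This difference was 0.534 points among regions with at least 70 CpGs and 2.16 points without the repeat families, a setting chosen after seeing the data. The classes were cut on 5mC, with which 5hmC varied. Boundary regions had 36.8% of their CpGs under 20% 5mC and 26.9% over 80%, against 6.35% and 6.45% in uniform regions. Mean 5mC was 5.53 points higher in uniform regions. The p-value therefore does not show a 5hmC difference beyond that of 5mC. Between uniform and mixed regions the difference was -0.113 points (SD 0.177, exact sign-flip permutation p = 0.19). Within the uniform class the repeat regions averaged 4.38%, 3.79% and 3.87% 5hmC in DCBQ samples and 3.55%, 3.81% and 4.46% in control samples. The other uniform regions averaged 6.49%, 5.99% and 6.46% in DCBQ samples and 5.95%, 6.09% and 6.59% in control samples. The repeats were lower by 2.28 points (SD 0.181, lower in 6 of 6 samples, exact sign-flip permutation p = 0.031, adjusted 0.039) at close to the same 5mC, with group medians of 52.4% in the repeats and 49.3% in the others. The sets were not alike in spread. The median SD between samples of single regions was 0.865 points in the repeats and 1.62 in the others for 5hmC. For 5mC it was 1.19 and 2.23. The part of this spread in the 5hmC difference was not tested.

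Within boundary regions 5hmC peaked at the edge itself. It was 5.91% in the last 50 bp before the change point and 5.51% in the first 50 bp after it, against 2.81% to 3.18% at 200 to 500 bp into the unmethylated side and 3.27% to 4.03% at 200 to 500 bp into the methylated side. The steps are placed by 5mC, and intermediate CpGs made up 66.8% and 66.1% of those in the 50 bp before and after the change point. Regions of intermediate 5mC had the highest 5hmC in general. A peak of 5hmC beyond that of intermediate 5mC was not tested. The highest 5hmC of single members was at 2 regions of chromosome 21, at chr21:6840001-6841000 with no annotated gene and at the pseudogene LONRF2P5 (chr21:13705001-13706000), and at MKNK2, a kinase of the translation factor eIF4E, and BEGAIN, a synaptic scaffold protein. The MKNK2 region (chr19:2042001-2043000, 65 CpGs) had 9.70%, 11.1% and 13.8% 5hmC in DCBQ samples, against 12.9%, 12.9% and 9.16% in control samples. The LONRF2P5 region had 17.3%, 5.65% and 10.1% in DCBQ samples, against 12.1%, 10.3% and 14.7% in control samples. The groups overlapped in both.

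The 5hmC level moved with the spread of the values. The median SD between samples of 5hmC in single regions was 1.06 points in members, against 0.266 in dense regions under 30% and 0.664 in those over 70%. Values a rounding error below 0 had been set to 0, so no 5hmC value used here lies below it. Of the values of single CpGs in members 39.6% were at 0, against 71.8% in dense regions under 30% and 47.3% in those over 70%. Within each sample the marks also moved against each other: across the 1294 members, a sample's deviation in 5mC from its group's mean and its deviation in 5hmC correlated at -0.697 to -0.585. This is a description over regions that share their libraries. The part of these features in the 5hmC levels was not tested.

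The mean 5mC of the members did not separate the conditions. It was 50.45%, 50.72% and 50.57% in DCBQ samples and 51.07%, 50.77% and 50.55% in control samples. The groups overlapped, and the difference was -0.217 points (SE 0.170, two-sided exact permutation p = 0.3). By class, the 21 regions with a pair of change points and the mixed regions had DCBQ samples wholly below the controls. Mixed regions had 55.25%, 55.44% and 55.29% in DCBQ samples, against 56.01%, 55.66% and 55.47% in control samples, a difference of -0.386 points (SE 0.167, two-sided exact permutation p = 0.1, the smallest possible). Boundary regions differed by -0.210 points (SE 0.118, two-sided exact permutation p = 0.2) and uniform regions by 0.255 points (SE 0.336, two-sided exact permutation p = 0.5), both with overlapping groups. None passed adjustment over 18 such comparisons, where the smallest adjusted p was 0.6.

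The difference between conditions was not shown to be particular to intermediate regions. In dense regions over 70% the DCBQ samples lay wholly below the controls, with a difference of -0.300 points (SE 0.0964, two-sided exact permutation p = 0.1), and in those under 30% the difference was -0.0775 points (SE 0.0606). The members' difference minus that of regions over 70% was 0.0831 points (SE 0.0951, two-sided exact permutation p = 0.6), and minus that of regions under 30% it was -0.140 points (SE 0.127, two-sided exact permutation p = 0.3). For 5hmC the members' difference was 0.159 points (SE 0.141, two-sided exact permutation p = 0.2). It exceeded that of regions over 70% by 0.0864 points (SE 0.179, two-sided exact permutation p = 0.7) and that of regions under 30% by 0.132 points (SE 0.121, two-sided exact permutation p = 0.3).

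**Figure D5:**
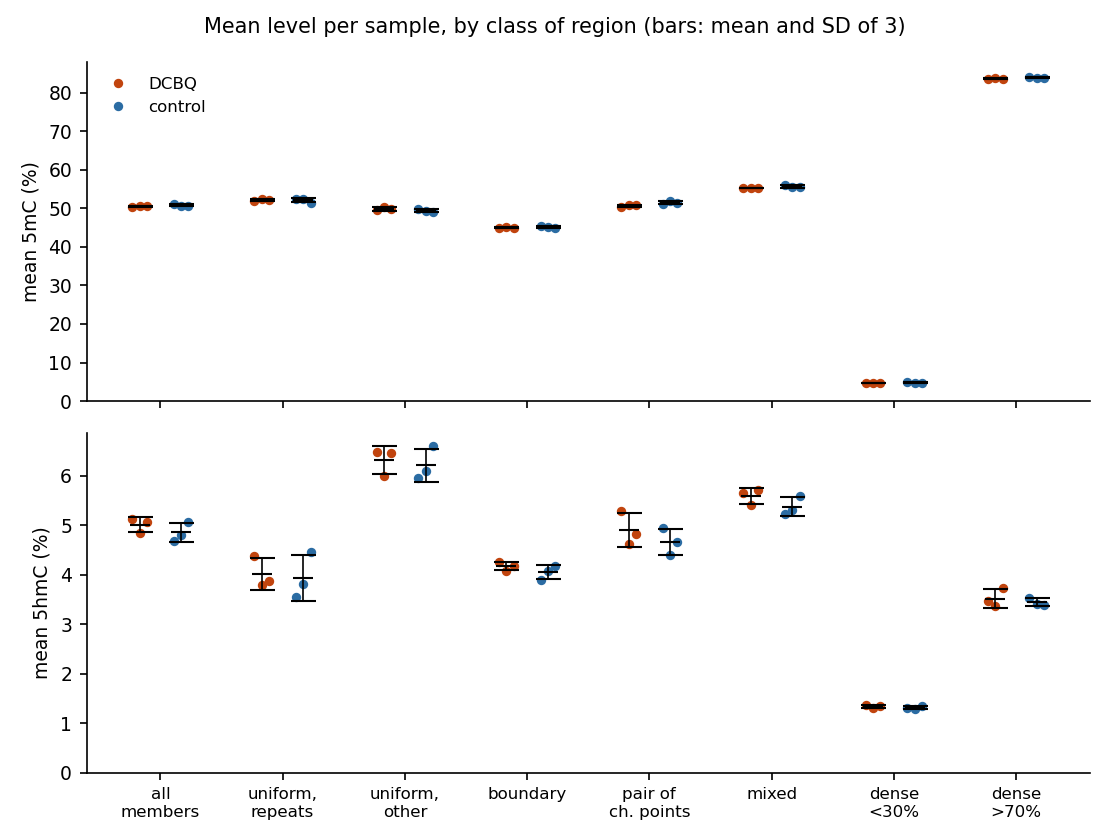
Mean 5mC (top) and 5hmC (bottom) in percent (y) of each sample by class of region (x), with DCBQ samples left of control samples and bars for the mean and SD of 3. The DCBQ and control points of members overlap for both marks, and other uniform regions stand highest in 5hmC, at 5.95% to 6.59%, against 3.55% to 4.46% in the uniform repeats.

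No single member passed the test between conditions. The limma test over all 210465 regions with at least 5 CpGs called 0 of them for 5mC (0%) and 0 of 201935 for 5hmC (0%) at an adjusted p of 0.05. At an unadjusted p under 0.05 it marked 35 of the 1294 members for 5mC (2.70%), beside 6.2% of all regions tested, and 5 for 5hmC (0.386%), beside 4.83%. When the dense regions were fitted alone, limma again called 0 for either mark (0%). At an unadjusted p under 0.05 that fit marked 151 members for 5mC (11.7%, 97 lower and 54 higher in DCBQ), beside 7.13% of dense regions, and 67 for 5hmC (5.18%), beside 4.91%. The first fit and the fit of dense regions thus placed members on opposite sides of the background for 5mC. Without the trend of the spread with the level, the fit over all regions marked 108 members for 5mC (8.35%), beside 6.79% of all regions, and 47 for 5hmC (3.63%), beside 5.35%. The cause of the disagreement was not tested. DCBQ and control values did not overlap, with DCBQ lower, in 134 members for 5mC (10.4%), beside 8.59% of dense regions, and with DCBQ higher in 72 (5.56%), beside 3.6%. For 5hmC the same counts were 43 lower (3.32%), beside 3.86%, and 77 higher (5.95%), beside 5.94%. Shares so near the background set the members apart in neither direction for 5hmC.

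Members with the smallest p among those whose groups did not overlap are given as values, since none was called. SUMO3, a small ubiquitin-like modifier, had a boundary region (chr21:44818001-44819000, 104 CpGs) with 37.2%, 35.9% and 38.7% 5mC in DCBQ samples, against 44.8%, 43.2% and 43.0% in control samples, a difference of -6.39 points (SE 1.63, limma adjusted p 0.73). ST6GALNAC2, a sialyltransferase, had 29.5%, 26.9% and 25.4% in DCBQ samples, against 31.3%, 34.3% and 33.1% in control samples. PLEKHG5 had 28.9%, 31.1% and 28.8% in DCBQ samples, against 34.1%, 34.3% and 33.3% in control samples. ADGRA2, an adhesion receptor, had 53.8%, 56.5% and 56.6% in DCBQ samples, against 62.7%, 60.9% and 63.2% in control samples. The DCBQ values were the lower ones in all 4, and the adjusted p was 0.73 to 0.74.

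In the other direction, RNF208, a RING finger protein, had a boundary region (chr9:137222001-137223000, 99 CpGs) with 65.1%, 61.3% and 57.7% 5mC in DCBQ samples, against 53.7%, 49.3% and 53.4% in control samples, a difference of 9.20 points (SE 2.66, limma adjusted p 0.74). TFAP2E, a transcription factor of the AP-2 family, had a uniform region (chr1:35573001-35574000, 49 CpGs) with 61.5%, 63.3% and 64.6% in DCBQ samples, against 57.1%, 52.0% and 56.1% in control samples. The region of COPZ2, a coatomer subunit whose gene hosts MIR152, had 31.2%, 35.4% and 33.7% in DCBQ samples, against 29.2%, 25.4% and 25.7% in control samples. IAH1, a predicted esterase, had a uniform region (chr2:9474001-9475000, 68 CpGs) with 35.8%, 36.4% and 37.8% in DCBQ samples, against 32.3%, 29.7% and 31.2% in control samples. The DCBQ values were the higher ones in all 4, with an adjusted p of 0.73 to 0.74.

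For 5hmC, the region of LOC112268183 (chr17:44970001-44971000, 59 CpGs) had 16.7%, 9.59% and 7.26% in DCBQ samples, against 3.64%, 4.39% and 3.85% in control samples, a difference of 7.23 points (SE 2.79, limma adjusted p 0.97). The difference was 4.47 points without DCBQ replicate 1, the highest sample. Its 5mC was 44.0%, 53.6% and 51.8% in DCBQ samples, against 56.8%, 64.9% and 59.1% in control samples. The marks thus differed in opposite directions, as they did at ST6GALNAC2, where 5hmC was 5.96%, 8.48% and 9.24% in DCBQ samples, against 3.93%, 2.78% and 4.44% in control samples. LINC01397 had 5.75%, 6.22% and 6.96% 5hmC in DCBQ samples, against 3.89%, 1.79% and 2.16% in control samples. At LINC01397 the 5mC difference was negative as well, at -3.28 points. The marks may not be independent readings, since the sources used here do not say how RRBS and oxRRBS libraries were combined. Across members their deviations within samples correlated at -0.697 to -0.585. Opposite differences at single regions therefore cannot be read as conversion of 5mC to 5hmC.

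The regions with lower 5hmC in DCBQ samples were at SAMD11, DUX4L12, near GAREM2 and at chr5:73419001-73420000, where no gene is annotated within 2 kb. SAMD11 had a boundary region (chr1:925001-926000, 63 CpGs) with 2.39%, 2.52% and 2.501% in DCBQ samples, against 4.43%, 3.89% and 4.31% in control samples. DUX4L12 had 3.96%, 3.45% and 4.67% in DCBQ samples, against 7.76%, 6.70% and 5.36% in control samples. The differences of the 4 were -2.58 to -1.74 points, with an adjusted p of 0.97. The imprinted PLAGL1 and HYMAI region also had separate groups, with 7.52%, 6.21% and 6.15% 5hmC in DCBQ samples, against 2.64%, 4.29% and 3.11% in control samples, a difference of 3.28 points (SE 1.44, limma adjusted p 0.97).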

How the data were processed

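The deposited tables hold 5mC and 5hmC per CpG as fractions from 0 to 1, made by the authors with strands merged and at least 5 reads per CpG, per the file names. BSMAP 2.90, cutadapt, Trim Galore and hg38 are named in the submitters' processing notes. The sources used here give neither the read depth nor how RRBS and oxRRBS libraries were combined. Values a rounding error below 0 were set to 0, and fractions were averaged over the CpGs of each 1 kb region and given in percent. Regions with at least 5 CpGs were tested with limma 3.58.1 (R 4.3.3, empirical Bayes with trend, Benjamini-Hochberg adjustment), over all regions and over the CpG-dense ones alone, and the fit was tested on simulated data. Means of sets were compared by exact permutation over the 20 relabellings of samples, and sets within samples by 64 sign flips. Python 3.11.15, numpy 2.4.6, pandas 2.3.3, statsmodels 0.14.6 and matplotlib 3.10.9 were used.

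The members and lists were chosen with earlier results of these data known. The repeat families, the printed sequences the comparison of adjacent CpGs and the comparisons of 5hmC between classes were chosen after values had been seen. Named regions were the imprinted members, the uniform ones with the smallest SD among CpGs, the boundary ones with the largest step, those with the smallest p in each direction and mark among groups that did not overlap, those with the highest 5hmC, and examples of each list and family with the highest shares of intermediate CpGs. Some regions that the rule names are not reported here. Genes were matched by position to RefSeq, and 421 of 426 list genes were found. Alternatives changed the limits of the rule and classes, the weighting of CpGs, the fit, the samples left out and a replicate block.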

Additional observations from a re-analysis of the deposited data

How the results depend on the processing

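The number of uniform regions depended on the limits. It was 427 with at least 30 CpGs and 97 with at least 70, 79 with an intermediate range of 25% to 75% and 400 with 15% to 85%, 404 at a share of 70% and 65 at 90%, and 131 without the repeat families, a setting chosen after seeing the data. Boundary regions numbered 227 in a 40% to 60% window, 928 with at least 30 CpGs and 174 with at least 70. With 1 sample left out, the members' difference between DCBQ and control samples ran from -0.341 to -0.0806 points for 5mC and from 0.0735 to 0.266 for 5hmC, and limma called 0 regions. Relative to regions under 30% it ran from -0.238 to -0.0343 for 5mC and from 0.045 to 0.223 for 5hmC. Relative to regions over 70% it ran from 0.00623 to 0.142 for 5mC and from -0.0469 to 0.222 for 5hmC, turning sign once. The 5hmC level differences kept their direction, at 3.58 to 3.65 over regions under 30%, 1.41 to 1.51 over those over 70%, 1.2 to 1.3 for uniform minus boundary and -2.32 to -2.22 for repeat minus other uniform, but 5 samples allow no p below 0.0625. Differences of 3 imprinted regions turned sign, from -1.94 to 2.89 at GRB10, -0.507 to 1.11 at GNAS (chr20:58889001-58890000) and -2.43 to 1.12 at GNAS (chr20:58840001-58841000). Other imprinted regions kept their sign, from 0.948 to 5.34 at PLAGL1, -3.49 to -0.49 at ZNF331, -6.02 to -2.78 at KCNQ1 and -1.88 to -0.536 at GNAS (chr20:58854001-58855000). The causes of the sign changes were not tested.

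With the replicate number as a block, the members differed by -0.217 points for 5mC and 0.159 for 5hmC. An exact sign-flip permutation of the differences between samples of the same number gave p = 0.5 for 5mC and p = 0.25 for 5hmC. The smallest p this sign-flip test can give is 0.25, so it cannot pass 0.05. Limma with this block called 0 regions for either mark, with 12777 and 9332 at an unadjusted p under 0.05. Deviations of samples with the same number correlated at 0.063 to 0.0989 for 5mC and 0.019 to 0.0523 for 5hmC over members, all under the limit of 0.1 set for pairing, and the labels tie no number to a shared culture or day. Samples with different numbers correlated at -0.0732 to 0.00109 for 5mC and -0.0453 to -0.00716 for 5hmC, so every sample correlated best with its own number over members, a hint from the data and not from the design. Over all regions tested, the 5mC correlations were -0.00385 to 0.00643 for the same number and -0.0103 to 0.0101 for different numbers. The 5hmC correlations were -0.0345 to 0.00924 for the same number and -0.0152 to 0.0295 for different numbers. Samples with the same number thus did not stand out over all regions for either mark. The tables hold no depth, which limits the precision of single regions in a way that cannot be stated here.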
